A study of Mus musculus with 6 samples.

Results

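The genes described here encode the conjugating enzymes of drug and toxin metabolism and their close partners: glutathione S-transferases (GSTs), UDP-glucuronosyltransferases (UGTs), sulfotransferases (SULTs) and epoxide hydrolases (EPHXs). Members were protein-coding genes whose symbol begins with Gsta, Gstm, Gstt, Gstp, Gstk, Gsto, Ugt1a, Ugt2a, Ugt2b, Ugt3a, Sult or Ephx, and 1 transcript was kept per gene, the one with the highest mean over all libraries. There were 51 such genes among 23394 measured genes: 18 GSTs, 19 UGTs, 10 SULTs and 4 EPHXs. A further 16 annotated genes of these families, among them every Gstp gene, were not analysed here.

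RNA of hepatic F4/80+ cells was sequenced in 6 libraries. F4/80, the product of Adgre1, is a surface antigen of mouse macrophages, and the cells were collected from digested liver by magnetic selection. There were 3 libraries from KO mice and 3 from WT mice, all male, of C57BL/6 background, 3 months of age, kept on normal chow and injected with carbon tetrachloride (CCl4), a hepatotoxin used to induce fibrosis. The labels do not name the gene removed in KO mice, the cells it was removed from, the number of injections or an untreated group. Nor do they say that the libraries stand for different animals, and the p-values then measure only the spread between libraries, which may be technical.

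Conjugation makes foreign and endogenous compounds more soluble, so that they can leave in bile or urine. GSTs attach glutathione to electrophiles such as epoxides and the aldehydes of lipid peroxidation. UGTs of the Ugt1a, Ugt2a and Ugt2b groups attach glucuronic acid and SULTs attach sulfate, while epoxide hydrolases add water to epoxides. Hepatocytes carry the bulk of this activity in liver, and CCl4 injures hepatocytes after its activation by cytochrome P450.

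The libraries held 10790842 to 19163317 reads in KO and 15027644 to 22157238 in WT, with 1 transcript per gene. Adgre1 did not pass the test between the groups (log2 change -0.23, limma adjusted p = 0.706), and Lyz2, the macrophage lysozyme, was lower in KO (log2 change -6.20, limma adjusted p = 0.00151). Markers of other liver cells were read beside those of macrophages. The summed level of 20 hepatocyte markers was 120155 to 220504 normalised counts in KO and 29859 to 92216 in WT. All 20 had a log2 change above 0, with a median of 1.78, and 9 passed the test, against 2.09% of all tested genes called higher. The sum of 15 macrophage markers was 78528 to 96644 in KO and 74839 to 174680 in WT, with a median log2 change of -0.04. Of these 15, limma and edgeR called 0, and DESeq2 called 1 higher and 2 lower. At an unadjusted p under 0.05 in limma, 2 were higher and 2 lower, against 12.1% and 5.9% of all tested genes. These were Clec4f and Cd14, at log2 changes of 1.12 and 0.62, and Marco and Csf1r, at -1.63 and -0.92. Median log2 changes were 1.35 for 10 endothelial, 0.69 for 10 stellate cell, 1.02 for 8 cholangiocyte and 3.12 for 8 erythroid markers. The summed endothelial, stellate cell and cholangiocyte markers, at 57087 to 115733, 31599 to 57121 and 15010 to 30277 in KO against 27599 to 53161, 19590 to 27850 and 3100 to 8223 in WT, did not overlap between the groups. Most of the cholangiocyte sum was Spp1, and the other 7 markers together, at 1079 to 1679 in KO and 321 to 1284 in WT, overlapped. No marker of any list was at 0 in all libraries of a group. The part of these other cells in the results that follow was not tested, and in bulk RNA fewer cells of a type and less RNA per cell cannot be told apart.

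KO was compared with WT to see how the RNA of these libraries differed between the genotypes after CCl4. Of the 39 members with enough reads to be tested, 6 were higher in KO. They were Sult2a8, Ephx2, Sult1a1, Gsta3, Gstk1 and Ugt2a3, by 1.16 to 3.30 on the log2 scale, and no member was lower. A call is an adjusted p under 0.05 in limma on log2(normalised count + 1), adjusted over all 15619 genes tested, and normalised counts are reads scaled by the authors with a single factor for a library. By that rule 326 genes, or 2.09% of those tested, were higher in KO and 55, or 0.352%, were lower, 2.44% in either direction. The log2 changes of the 39 tested members had a median of 0.98, and 36 were above 0. Over all tested genes the median was 0.05 and 54.2% were above 0. The KO and WT libraries did not overlap, with KO higher, for 19 of the 39 members and for 13.7% of all tested genes. At an unadjusted p under 0.05 there were 21 members higher and 0 lower, against 12.1% of all tested genes higher and 5.9% lower. The 9 Ugt1a genes hold the same reads over much of their length, and counted as 1 gene they leave 31 tested members with a median of 1.26.

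The number of members called differed when a library was left out, and so did the share of all genes called. Without KO replicate 3 limma called 0 of the 39 members, while 0.0435% of all tested genes were called higher. At an unadjusted p under 0.05 that fit had 19 members and 8.6% of all genes higher. It called 2 members without KO replicate 2 (0.812% of all genes higher) and 2 without WT replicate 3 (0.921%). When WT replicate 1 was omitted 3 members passed (1.04%), when WT replicate 2 was omitted 4 did (1.76%), and 6 did when KO replicate 1 was omitted (3.95%). Over these 6 fits the log2 change of Sult2a8 was 2.82 to 3.63 and that of Gstk1 was 1.08 to 1.27. On the whole reads recovered from the values, edgeR's quasi-likelihood test called 4 members (1.41% of all genes higher), limma-voom 6 (1.61%) and DESeq2 18 (6.27%). These 3 tools called no member lower.

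**Figure D1:**
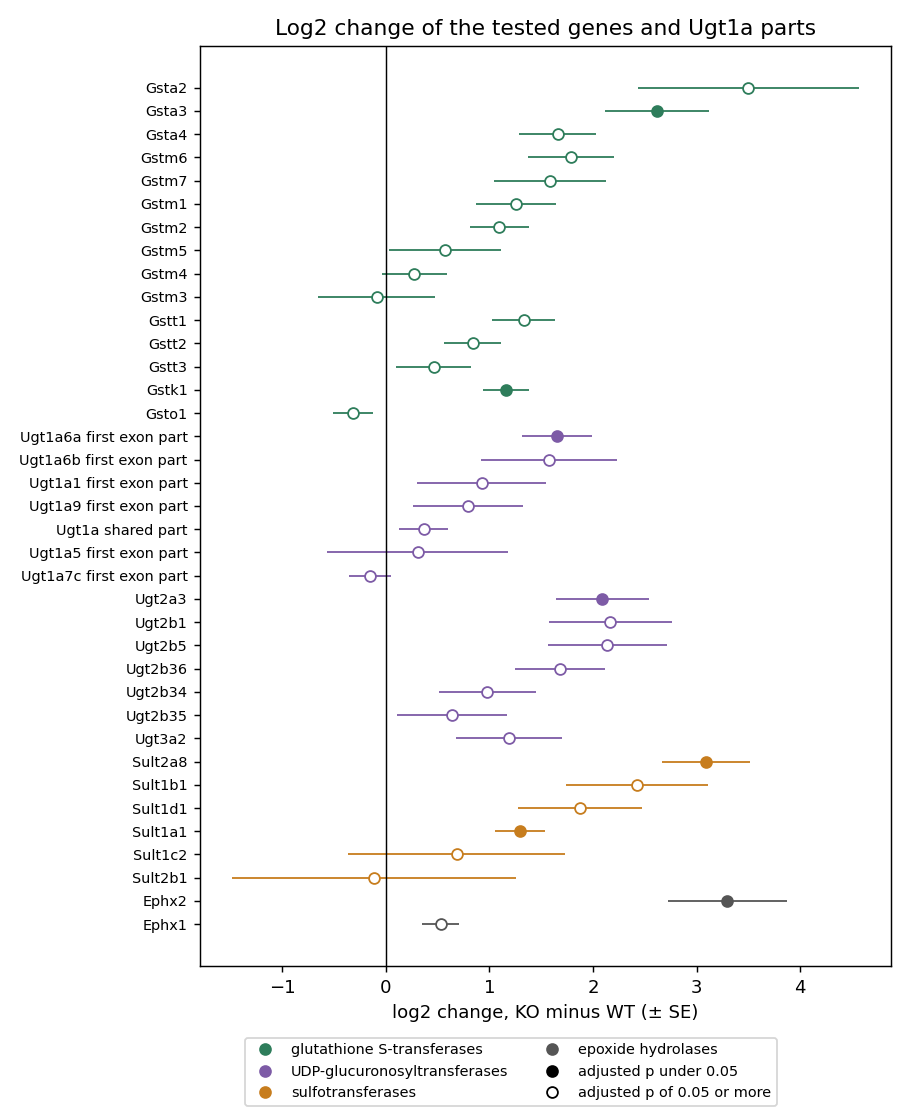
Log2 change of KO minus WT libraries (horizontal axis, bars ± SE) for each tested gene, with the Ugt1a genes split into the part common to all and the first exon part of each. Filled points had a limma adjusted p under 0.05; Gsta2 lies farthest right at 3.50 but is not filled, and Gsto1 lies farthest left at -0.32.

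Among the alpha class GSTs, Gsta3 was called. Gsta3 is known in mouse for conjugating the epoxide of aflatoxin, and it lies on the plus strand of chromosome 1 at 21240589 to 21265661 (GRCm38). It had 5919, 2595 and 2840 normalised counts in KO replicates 1, 2 and 3, against 1164, 257 and 626 in WT replicates 1, 2 and 3. Every KO library stood above every WT library, and KO replicate 1 was far above the others. It rose by 2.62 on the log2 scale (SE 0.50, limma adjusted p = 0.0373), or 6.14-fold on that scale. The call was lost without KO replicate 2, KO replicate 3 or WT replicate 3, at adjusted p of 0.0701, 0.108 and 0.0632, and edgeR gave 0.0543.

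Promoters were searched because many GST genes respond to the antioxidant response element, to which the factor encoded by Nfe2l2 binds. The core TGACNNNGC was sought on both strands in RefSeq windows of GRCm38.p6 from 250 bases before to 50 bases after the start site. It occurred in 3 of the 44 members with a window, Gsta3, Gstm5 and Gstm7, or 6.82%, and in 14.0% of 27025 genes. Only 1 of those 3, Gsta3, was called. Its window, chr1:21240335-21240634 on the plus strand, is shown because it holds a match in a called member, with the match in capitals starting 121 bases before the start site.
Gsta3 promoter: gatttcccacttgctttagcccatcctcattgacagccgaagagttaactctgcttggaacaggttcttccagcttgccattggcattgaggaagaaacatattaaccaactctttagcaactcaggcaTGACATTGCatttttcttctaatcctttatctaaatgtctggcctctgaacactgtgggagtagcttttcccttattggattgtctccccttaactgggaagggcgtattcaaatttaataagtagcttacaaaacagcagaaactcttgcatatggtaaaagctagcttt

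The other alpha class genes varied more or had less RNA. Gsta2, an inducible alpha class enzyme, had 98.3, 44.1 and 21.1 normalised counts in KO against 3.09, 0 and 15.7 in WT. Its log2 change of 3.50 (SE 1.07) was the largest of the tested members and did not pass (limma adjusted p = 0.119). The coding sequences of Gsta2 and Gsta1 are 97.6% identical, so reads may be misplaced between them, and Gsta1 had 0 reads in KO and 3 in WT. Gsta4, which conjugates the lipid aldehyde hydroxynonenal, had 268, 213 and 242 normalised counts in KO against 98.9, 42 and 103 in WT. Its groups were also apart, and its log2 change of 1.66 (SE 0.37) lay just outside the threshold (limma adjusted p = 0.0529).

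The mu class held the most abundant transcript of all members. Gstm1, the main mu class enzyme of mouse liver, averaged 3092 ± 1467 normalised counts per kb in KO and 1308 ± 631 in WT (SD, n = 3 each). By library it had 6168, 2817 and 2972 normalised counts in KO and 2568, 967 and 1523 in WT. The groups were narrowly apart, since WT replicate 1 nearly reached the lower KO libraries, and the log2 change of 1.26 did not pass (limma adjusted p = 0.123). Gstm6 had the largest change of the class at 1.79, with 273, 107 and 150 normalised counts in KO against 53.6, 33.6 and 56.2 in WT (limma adjusted p = 0.0566). Gstm7 and Gstm2, at 1.59 and 1.10, were likewise higher in every KO library without passing. Gstm3, at -0.09, had 383, 89.4 and 93.0 normalised counts in KO and 226, 94.5 and 180 in WT, so that KO replicate 1 was the highest library and KO replicate 2 the lowest. The sign of Gstm3 changed with the tool, at 0.085 in edgeR and 0.11 in DESeq2. Gstm4 and Gstm5, at 0.27 and 0.57, overlapped between the groups.

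Of the theta class, which acts on small halogenated compounds, none of 3 tested genes passed in limma. Gstt1 had 536, 274 and 310 normalised counts in KO against 181, 118 and 133 in WT, for a difference of 1.33 on the log2 scale (SE 0.31, limma adjusted p = 0.0567). Gstt2 was at 0.84 and Gstt3 at 0.46. At an unadjusted p under 0.05 in limma, 2 of the 3 were higher, against 12.1% of all tested genes. DESeq2 called Gstt1, with 6.27% of all genes called higher, whereas edgeR and limma-voom called none. The groups of Gstt1 and Gstt2 were apart and those of Gstt3 overlapped; 27.9% of the exon length of Gstt3 overlaps the model Gm20441 on the same strand. Gstt4 had 1 read in all libraries together, in WT.

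Of the 2 tested kappa and omega class genes, Gstk1 was called. Gstk1, the kappa class enzyme of mitochondria and peroxisomes, lies on the plus strand of chromosome 6 at 42245935 to 42250447. It had 375, 360 and 316 normalised counts in KO against 182, 148 and 140 in WT. Its values were tight within each group, at 351 ± 30.7 in KO and 157 ± 22.3 in WT (SD, n = 3 each), and it rose by 1.16 on the log2 scale (SE 0.22, limma adjusted p = 0.0373). Gstk1 kept a call without KO replicate 1, with an adjusted p of 0.0439, and lost it without any other single library, at 0.0527 to 0.129. Gsto1, an omega class enzyme with thioltransferase and dehydroascorbate reductase activity, was the most abundant omega gene, at 824 ± 152 normalised counts per kb in KO and 1024 ± 140 in WT. It had 1181, 882 and 858 normalised counts in KO against 1388, 1184 and 1061 in WT. The groups overlapped, and the log2 change of -0.32 did not pass (SE 0.19, limma adjusted p = 0.441). Across the 6 leave-one-out fits and the other alternatives it stayed between -0.47 and -0.22. Gsto2 had 24 reads in KO and 3 in WT and was not tested.

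**Figure D2:**
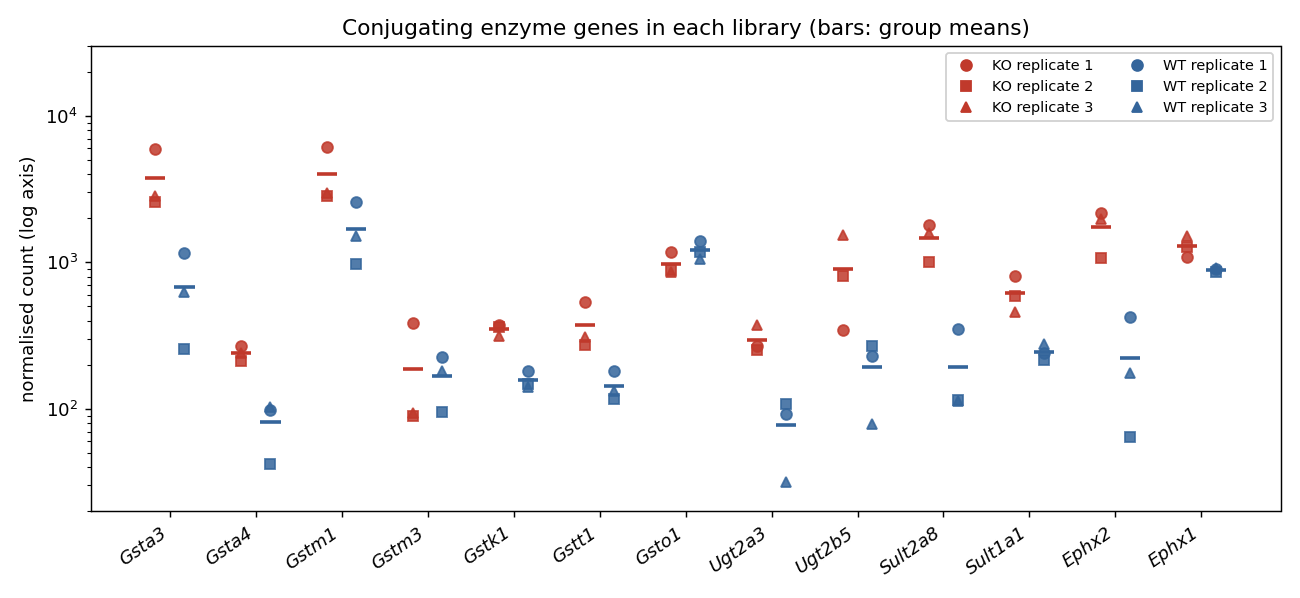
Normalised counts (log axis) of 13 genes in each library, with KO libraries left of WT libraries in each pair, the replicate number as the marker and a bar at each group mean. All KO libraries of Gsta3, Sult2a8 and Ephx2 lie above all WT libraries, while those of Gstm3 and Gsto1 overlap.

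The 9 Ugt1a genes need a reading of their own, because they are alternative first exons spliced to 4 common exons. The common exons lie on the plus strand of chromosome 1 from position 88215044 to 88218997 in most of the genes and to 88220002 in Ugt1a7c. In the GENCODE annotation of GRCm38 the first exons are 879 to 954 bases long, against 1311 common bases in most of the genes. The joins below are shown because reads can tell the genes apart only on the left side: the last 30 bases of each first exon are in lower case and the first 30 bases of the common exon, identical in all 9 genes, are in capitals. The ends of the first exons of Ugt1a6a, at 88139331, and Ugt1a6b, at 88107799, are themselves the same over these 30 bases.
Ugt1a7c: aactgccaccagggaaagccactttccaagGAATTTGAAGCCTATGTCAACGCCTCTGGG
Ugt1a6a: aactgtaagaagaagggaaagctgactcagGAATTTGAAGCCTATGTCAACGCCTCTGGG
Ugt1a6b: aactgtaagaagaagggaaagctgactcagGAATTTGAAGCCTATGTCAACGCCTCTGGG
Ugt1a1: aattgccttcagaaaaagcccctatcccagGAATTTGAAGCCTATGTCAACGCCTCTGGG

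As deposited, each Ugt1a gene holds the reads of the common exons again. Ugt1a2, Ugt1a8 and Ugt1a10 had identical values in every library, 1374, 1574 and 2200 normalised counts in KO and 1703, 1234 and 1058 in WT. Those values were therefore taken as the common part, and the excess of each other gene over them as its first exon part. This split was chosen after the values were seen. Ugt1a7c also has the longer last exon, and an annotated isoform that joins the Ugt1a6a exon to it held at most 6.74 normalised counts more than Ugt1a6a itself. The common part overlapped between the groups (log2 change 0.37, SE 0.24, limma adjusted p = 0.481). With limma none of the 9 genes as deposited passed or had an unadjusted p under 0.05, and edgeR, limma-voom and DESeq2 called 0.

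Of the 6 first exon parts that could be tested, that of Ugt1a6a was called. Ugt1a7c gave the largest part in every library, with 416, 509 and 416 normalised counts in KO and 600, 450 and 446 in WT. Its groups overlapped and its log2 change of -0.15 did not pass (SE 0.20, limma adjusted p = 0.76). Ugt1a6a, whose enzyme glucuronidates small planar phenols and is inducible through the dioxin receptor Ahr, had 99.8, 117 and 123 normalised counts in KO against 40.2, 33.6 and 32.0 in WT. The groups were clearly apart, and this part rose by 1.65 on the log2 scale (SE 0.34, limma adjusted p = 0.0439), in a fit that called 2.11% of all features higher in KO and was not repeated without single libraries. Ugt1a6b had a log2 change of 1.57 (limma adjusted p = 0.247). The coding sequences of Ugt1a6a and Ugt1a6b are 98.4% identical, so reads may be misplaced between them. Ugt1a1, the enzyme of bilirubin glucuronidation, had 64.1, 63.1 and 151 normalised counts in KO and 71.1, 73.5 and 16.3 in WT. KO replicate 3 was its highest library and WT replicate 3 its lowest, and the groups overlapped (log2 change 0.93, limma adjusted p = 0.494). Ugt1a9 and Ugt1a5 were at 0.79 and 0.31, with limma adjusted p of 0.489 and 0.9. Ugt1a7c is 91.5% identical in coding sequence to Ugt1a8, Ugt1a9 95.3% to Ugt1a10 and Ugt1a5 90.1% to Ugt1a2. The common exons are part of these figures. Reads may be misplaced there too, also in Ugt1a2, Ugt1a8 and Ugt1a10, whose values set the common part.

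Expressed as shares of all first exon reads, of which the libraries held 454 to 971, Ugt1a7c took 61.5%, 65.8% and 50.7% in KO and 75.3%, 74.4% and 85.4% in WT. The 95% Wilson interval covers counting error only. It was 62.1 to 69.3 in KO replicate 2, the highest KO share, and 70.6 to 77.7 in WT replicate 2, the lowest WT share. Ugt1a6a took 14.9% ± 0.171 in KO and 5.57% ± 0.539 in WT (SD, n = 3 each). For both shares the groups did not overlap, and only these 2 shares were tested. The two-sided exact permutation p was 0.1, the smallest that 3 against 3 libraries allow, and 0.1 again when adjusted over the 2 shares. Any groups of 3 that do not overlap give this p, so it adds nothing to the lack of overlap. The share of Ugt1a6b was also apart, at 4.85%, 2.62% and 6.59% in KO and 2.46%, 1.39% and 1.29% in WT. Those of Ugt1a1, Ugt1a9 and Ugt1a5 overlapped. Shares of one total are not independent of each other.

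**Figure D3:**
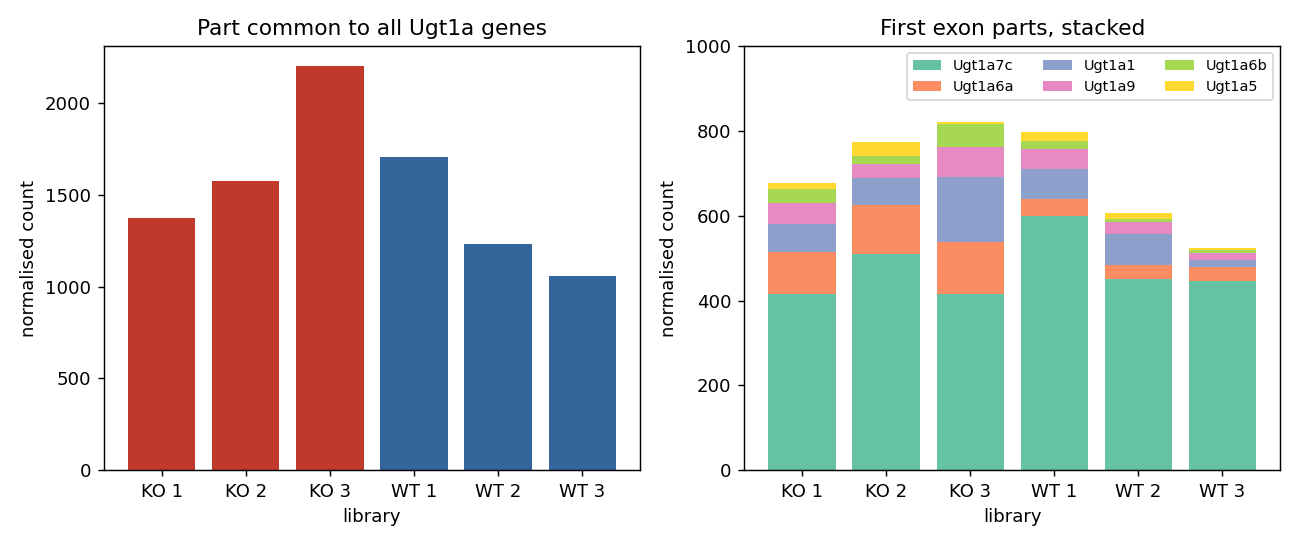
Normalised counts of the part common to all Ugt1a genes (left panel) and of the first exon parts, stacked (right panel), in each library. The common part overlaps between KO and WT, Ugt1a7c is the tallest block in every library, and the Ugt1a6a block is 99.8 to 123 in KO and 32.0 to 40.2 in WT.

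The UGT2 and UGT3 genes act on steroids, bile acids and drugs, and 1 of 7 tested genes was called. Ugt2a3, whose human counterpart glucuronidates bile acids, spans chromosome 5 from 87324972 to 87337195, minus strand. It had 270, 250 and 372 normalised counts in KO against 92.7, 107 and 31.4 in WT, with every KO library above every WT library. It rose by 2.09 on the log2 scale (SE 0.45, limma adjusted p = 0.047). Over all 17 alternatives this was the least stable of the 6 calls. It was lost in 9, among them TMM factors (adjusted p = 0.0545), edgeR (0.0605) and the fits without KO replicate 1 (0.0535), 2 (0.121) or 3 (0.184) or WT replicate 1 (0.096). With single libraries left out it kept the call in 2 fits, against 1 each for Gstk1 and Sult1a1.

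The most abundant gene of the UGT2 group was Ugt2b5, with 343, 802 and 1537 normalised counts in KO against 231, 269 and 78.6 in WT. Its KO libraries spread widely around a mean of 894 ± 603, and its log2 change of 2.14 did not pass (SE 0.58, limma adjusted p = 0.088). Without KO replicate 1 Ugt2b5 passed, with an adjusted p of 0.0283 and a log2 change of 2.70. Ugt2b5 is 97.0% identical in coding sequence to Ugt2b38, which was read in KO replicate 3 alone, with 79 reads, and 94.7% identical to Ugt2b37, with 13 reads in KO and 1 in WT. Reads may be misplaced among these genes, and the last pair was too low to be tested. Ugt2b1, with the largest change of the group, had 194, 309 and 654 normalised counts in KO against 111, 127 and 29.2 in WT (log2 change 2.169, SE 0.60, limma adjusted p = 0.0922). Ugt2b36 was apart between the groups at 1.68, while Ugt2b34 at 0.98 and Ugt2b35 at 0.64 overlapped. Ugt3a2 had 142, 148 and 460 normalised counts in KO and 91.7, 154 and 56.2 in WT, a log2 change of 1.19 with overlapping groups (limma adjusted p = 0.262). It is 93.2% identical to Ugt3a1, which was not tested and had 58 reads in KO and 10 in WT.

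The 2 SULT genes of highest level per kb were both called. Sult2a8, a bile acid sulfotransferase of mouse liver, spans chromosome 7 from 14410686 to 14446769, minus strand, and had the highest level of its family, 698 ± 196 normalised counts per kb in KO and 91.7 ± 64.4 in WT. By library it had 1795, 1003 and 1593 normalised counts in KO against 348, 116 and 113 in WT. The lowest KO library was well above the highest WT library, and Sult2a8 rose by 3.09 on the log2 scale (SE 0.42, limma adjusted p = 0.0147), or 8.53-fold. It was the most stable call, lost in 1 of 17 alternatives, without KO replicate 3, where the adjusted p was 0.0722 and the log2 change 3.01.

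Sult1a1, the main phenol sulfotransferase, spans chromosome 7 from 126672865 to 126676432, minus strand. It had 803, 585 and 457 normalised counts in KO against 242, 215 and 276 in WT. All KO libraries were higher, and the gene rose by 1.30 on the log2 scale (SE 0.24, limma adjusted p = 0.0349). Its call was kept without KO replicate 1, at 0.0368, and lost without any other single library, at 0.0533 to 0.107. Sult1b1, which sulfates thyroid hormones, had 58.1, 36.9 and 42.3 normalised counts in KO against 18.5, 6.30 and 3.37 in WT, a log2 change of 2.43 that did not pass (limma adjusted p = 0.0984). Sult1d1, a catecholamine sulfotransferase, had 302, 89.4 and 129 normalised counts in KO and 94.8, 25.2 and 28.1 in WT, so that WT replicate 1 exceeded KO replicate 2 (log2 change 1.87, limma adjusted p = 0.131). Sult1c2 had 41.7, 44.1 and 33.0 normalised counts in KO and 17.5, 4.2 and 163 in WT, with WT replicate 3 far above all other libraries. Its log2 change was 0.68 (limma adjusted p = 0.796), 2.04 without that library and -0.74 in edgeR. Sult2b1, which sulfates cholesterol, was low and scattered, at 26.8, 19.1 and 0 normalised counts in KO and 9.27, 2.10 and 21.3 in WT. The other 4 SULTs were not tested: Sult4a1, known from brain, had 14 reads in KO and 21 in WT, Sult5a1 had 24 in KO and 12 in WT, Sult2a7 had 9 in KO and 0 in WT, and Sult2a3 had 0 in KO and 4 in WT.

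Of the 2 tested epoxide hydrolases, Ephx2 was called. Ephx2, the soluble enzyme that hydrolyses epoxides of arachidonic acid, spans chromosome 14 from 66084374 to 66124500, minus strand. It had 2184, 1071 and 1982 normalised counts in KO against 422, 64.1 and 177 in WT. The groups were far apart, and Ephx2 rose by 3.30 on the log2 scale (SE 0.58, limma adjusted p = 0.0267), or 9.82-fold. That call was lost without KO replicate 3 and without WT replicate 3, at adjusted p of 0.108 and 0.0508. Ephx1, the microsomal enzyme that hydrolyses epoxides of drugs and pollutants, had 1092, 1282 and 1515 normalised counts in KO against 901, 857 and 913 in WT. All KO libraries were higher, but the log2 change of 0.53 did not pass (SE 0.18, limma adjusted p = 0.15). Per kb, Ephx1 stood at 745 ± 122 normalised counts in KO and 511 ± 17 in WT, and Ephx2 at 858 ± 291 in KO and 109 ± 90.03 in WT (SD, n = 3 each). Ephx3 and Ephx4 were not tested, with 5 and 3 reads in KO and 14 and 16 reads in WT.

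The library with the highest value was not the same in every family. Among the 3 KO libraries, replicate 1 was the highest for 14 of 15 tested GSTs and 5 of 6 tested SULTs, whereas replicate 3 was the highest for all 7 tested UGT2 and UGT3 genes. Among the WT libraries, replicate 2 was the lowest for 10 of the 15 GSTs and 4 of the 6 SULTs, and replicate 3 was the lowest for 6 of the 7 UGT2 and UGT3 genes. Hepatocyte markers showed both patterns. Replicate 3 was the highest KO library for 15 of the 20, among them Alb, Cps1 and Cyp2e1, and replicate 1 for the other 5, which were Ass1, Hpd, Pck1, Tat and Tdo2. Erythroid markers summed to 269576, 105054 and 31547 normalised counts in KO replicates 1, 2 and 3, against 14034, 34297 and 3180 in WT replicates 1, 2 and 3. Their part in the GST values was not tested.

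**Figure D4:**
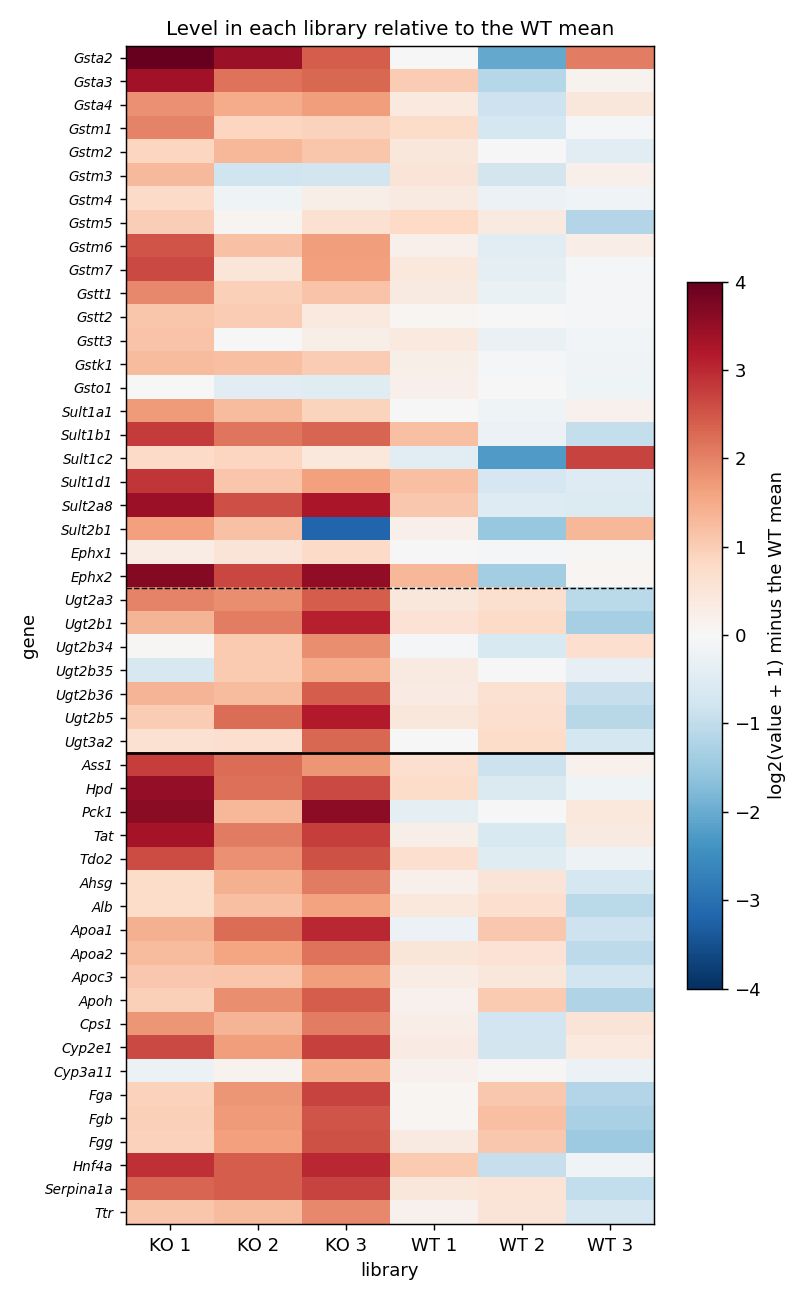
Log2(normalised count + 1) minus the WT mean of each gene (color) in each library, with KO libraries left of WT libraries. Rows run from GSTs, SULTs and EPHXs through the UGT2 and UGT3 genes below the dashed line to the 20 hepatocyte markers below the solid line; among all 6 libraries, KO replicate 1 is the highest for 13 of the 15 GSTs and KO replicate 3 for all 7 UGT2 and UGT3 genes.

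The members were also set beside the hepatocyte markers. The summed hepatocyte markers were higher in KO by 1.44 on the log2 scale, and relative to that sum 13 of the 39 tested members were above 0 and 26 below, with a median of -0.46. The 26 below include all 9 Ugt1a genes, at -1.19 to -1.02. These hold the same reads over much of their length, so the count and the median give them the weight of 9 separate genes. Relative to it Ephx2, Sult2a8 and Gsta3 stood at 1.86, 1.66 and 1.18, while Gstk1, Sult1a1 and Gstm1 stood at -0.28, -0.14 and -0.18 and Gsto1 at -1.76. Most of that sum was Alb, whose log2 change was 1.19, while the 20 markers ran from 0.46 for Cyp3a11 to 2.83 for Pck1. Against the mean log2 value of the markers, Ephx2, Sult2a8 and Gsta3 stood at 1.35, 1.15 and 0.67. On that scale 8 of the 39 members were above 0 and 31 below, with the 9 Ugt1a genes again among those below, at -1.70 to -1.52. Per 1000 normalised counts of hepatocyte markers, the EPHX genes together had 27.3, 15.5 and 15.9 in KO and 18.1, 9.997 and 36.9 in WT, so the groups overlapped. The GSTs together had 138, 55.5 and 39.99 in KO and 91.2, 37.2 and 146 in WT, again overlapping. The SULTs together had 25.3, 11.8 and 10.3 in KO and 10.2, 4.08 and 20.5 in WT. The UGT2 and UGT3 genes together had 13.96, 16.4 and 22.6 in KO and 13.86, 12.4 and 20.3 in WT. Both overlapped as well, with the KO mean above the WT mean, while for the EPHX genes and GSTs it was below. These ratios are descriptions and were not tested.

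Genes that supply or extend conjugation were examined in a list of 28, of which 26 were tested. Of these 7 were higher and 1 was lower, against 2.09% and 0.352% of all tested genes, and the median log2 change was 0.75. Gstz1, a GST of tyrosine breakdown outside the families above, had 1904, 908 and 1341 normalised counts in KO against 420, 285 and 264 in WT (log2 change 2.06, limma adjusted p = 0.0147). Baat, which joins bile acids to amino acids, and Glyat, which joins acids to glycine, rose by 3.21 and 3.12. Inmt, a methyltransferase, and Acsm5, an acyl-CoA synthetase, rose by 2.86 and 2.52. Every KO library of these 5 genes was above every WT library.

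Among the suppliers of cofactors, Gclm, the modifier subunit of the enzyme that limits glutathione synthesis, rose by 1.06 (limma adjusted p = 0.0397). Papss2, which makes the sulfate donor, had 697, 636 and 693 normalised counts in KO against 419, 337 and 306 in WT and rose by 0.94 (limma adjusted p = 0.0439). Gsr, which regenerates reduced glutathione, had 2533, 2163 and 1524 normalised counts in KO against 5241, 3896 and 3749 in WT. It was the 1 gene of the list that limma called lower, at -1.07 on the log2 scale (SE 0.23, limma adjusted p = 0.0495), with an edgeR adjusted p of 0.0508. Without KO replicate 3 none of these 8 genes passed, at limma adjusted p of 0.0742 for Gstz1 to 0.185 for Gsr. Gsr and Papss2 each kept their call in 1 of 6 leave-one-out fits, Gclm and Acsm5 in 2, and Glyat in 4. Ugdh, which makes the glucuronic acid donor, was at 0.50 and did not pass (limma adjusted p = 0.177). Hpgds, the sigma class GST that makes prostaglandin D2, had 96.8, 132 and 101 normalised counts in KO against 316, 365 and 160 in WT. Every KO library was below every WT library, and the log2 change of -1.27 did not pass in limma or edgeR (adjusted p = 0.0871 and 0.071). DESeq2 called Hpgds and Gsr lower, at adjusted p of 0.00501 and 0.000439.

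Of 16 sensors and carriers of conjugates, all tested, 1 was higher, 0 were lower and the median log2 change was 0.22. Of all tested genes 2.09% were higher and 0.352% lower. Slco1a1, an organic anion importer, had 52.1, 77.4 and 113 normalised counts in KO against 1.03, 0 and 0 in WT (limma adjusted p = 0.0144, and 0.101 without KO replicate 3). Abcg2, which exports sulfate conjugates, had 250.3, 334 and 326 normalised counts in KO against 150.4, 156 and 121 in WT, with a log2 change of 1.08 that did not pass (limma adjusted p = 0.0527). The xenobiotic receptors Nr1i2 and Nr1i3, at 3.05 and 2.63, and the dioxin receptor Ahr, at 0.65, did not pass, with adjusted p of 0.0774, 0.111 and 0.0885. Nfe2l2, which encodes the antioxidant response factor, had 2284, 2217 and 2403 normalised counts in KO and 3915, 3459 and 2313 in WT. Its groups overlapped (log2 change -0.45, limma adjusted p = 0.314). At an unadjusted p under 0.05 in limma, 7 of the 16 were higher and 0 lower, against 12.1% and 5.9% of all tested genes. DESeq2 called 5 higher and edgeR 1, against 6.27% and 1.41% of all genes.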

How the data were processed

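Libraries were made from polyadenylated RNA with a kit that keeps strand, per the labels' protocols. The build GRCm38.p4 and the tools DESeq 1.8.3, HTSeq 0.5.3, SAMtools, STAR 2.4.0k and bcl2fastq 2.17 come from the submitters' processing notes, which state no roles for them. For the annotation release, the strand setting and reads with several matches, the authors' choices were not given in the sources used here. The tables, 1 for each library, list a deposited signal for 79382 Ensembl transcripts, called normalized counts in the file headers. Dividing each table by its smallest nonzero value gave whole numbers for 100% of the transcripts within 0.001, so whole read counts could be recovered from the deposited signal.

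Transcripts were matched to genes in the GENCODE annotation of GRCm38. Another 1050 had no match there and were left out, with 1.03% to 1.32% of each library's reads. Of 67 annotated protein-coding symbols of the families, 51 had a row in the tables, from 128 transcripts. A read of a shared exon is counted for every transcript that holds the exon, so isoforms were not summed in the main test.

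The main test was limma 3.58.1 (trended prior, two-sided, genotype as the only term) on log2(value + 1) of the 15619 genes that filterByExpr kept. This left 7775 genes untested, 12 members among them. P-values were adjusted by the Benjamini-Hochberg method over all tested genes. The scale understates changes of low genes. Of the 39 tested members, 35 had at least 10 reads in every WT library, and Gsta2, Sult1b1, Sult1c2 and Sult2b1 did not. Alternatives were TMM factors, edgeR 4.0.16, DESeq2 1.42.0, limma-voom, pseudocounts of 0.5 and 5, other low-value filters, summed transcripts, a block for the replicate number and the omission of single libraries. Data were simulated for KO against WT over 15619 genes, with the same spread beyond counting error for every gene and with genes independent of each other. The real libraries need not meet this, so the results hold for that setting only. There limma called 3 of 15419 unchanged genes. It recovered 5 of 50 genes simulated with a log2 change of 1, 37 of 50 at 2, 49 of 50 at 3 and 50 of 50 at 4. Levels per kb divide by the exon length of the kept transcript.

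The members and lists were chosen with earlier results of these data known. Named genes were every called member, the most abundant tested member of each family, those of largest and smallest log2 change, members read in 1 group, and the called genes and 3 smallest p-values of both lists of helper genes. The other members, and Ugdh, Hpgds, Ahr, Nr1i3 and Nfe2l2, were added after their values were seen, to account for all members and for both groups of helper genes. Members with at least 90% identical coding sequence, or with 10% of exon length shared with another gene on the same strand, are named as uncertain. Coding sequences stood in for protein sequences in that rule. RefSeq promoter windows of GRCm38.p6 matched 44 members by symbol. Ephx2, Gsta4, Gstt2, Sult2a7, Sult4a1, Ugt1a6b and Ugt3a2 had none. Exon joins were read from the GENCODE transcripts. Whether the replicate numbers pair the libraries is not known, and the main test does not use them.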

Additional observations from a re-analysis of the deposited data

How the results depend on the processing

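Limits come from 3 libraries per group, of 10790842 to 22157238 reads each when 1 transcript is kept per gene. In the simulation, which gave every gene the same spread, changes of 1 on the log2 scale were mostly missed. With 1 library left out, the number of genes called ranged from 8 to 809, of members from 0 to 6, of conjugation and cofactor genes from 0 to 8 and of sensors and carriers from 0 to 2. Fewer samples enter those fits by construction. DESeq2 called 1409 genes, 18 members, 14 conjugation and cofactor genes and 5 sensors and carriers, and the cause was not tested. With all transcripts of a gene summed, 233 genes, 3 members and 4 conjugation and cofactor genes passed, and the cause was not tested. With the Ugt1a genes split, 384 genes and 7 members passed. Relative to the mean log2 value of the hepatocyte markers in place of their sum, the median member stood at -0.97 in place of -0.46. Both medians count each Ugt1a gene apart.

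Same-numbered KO and WT libraries had correlations of -0.01, 0.09 and -0.14 between their deviations from the group means. Differently numbered libraries had -0.13 to 0.14. With 3 libraries per group these values cannot decide whether the numbers pair the libraries. With the replicate block 539 genes, 10 members and 2 sensors and carriers passed.

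Over the 39 tested members and their alternatives, 592 of 654 values kept the direction and the side of the threshold, 28 lost the call, 19 gained one and 15 changed sign. The 9 Ugt1a genes, which hold largely the same reads, entered as 9, and all of their values were among those kept. The sign changes were in Gstm3, Gstm5, Sult1c2 and Sult2b1, none of which passed in the settings run. Gstm5 was at -0.0083 to 0.97 with 1 library left out. Sult1c2 was at -0.74 in edgeR, -0.71 in DESeq2 and -0.45 to 2.04 with 1 library left out. Gstm3 was at 0.085 in edgeR, 0.11 in DESeq2 and -0.77 to 0.27 with 1 library left out. Sult2b1 was at 0.32 in edgeR, 0.40 in DESeq2, 0.17 with a pseudocount of 5 and -0.99 to 1.40 with 1 library left out.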
